A study of Mus musculus with 15 samples.

Results

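Adarb1 and Adar encode the catalytically active adenosine deaminases of the mouse that edit messenger RNA. They were taken from the count table by their symbols, as 2 of its 56832 genes, and both were among the 17204 genes that passed the filter on low counts. Adarb1 was chosen by its read counts, which were lower in TauT-/- than in TauT+/+ cultures, and Adar as its relative, so the genotype values of both genes are given as a description with no test. The libraries came from bone marrow mesenchymal stromal cell (MSC) cultures of mice of 16 weeks on a C57BL/6J background, with a global loss of the taurine transporter TauT (gene Slc6a6) or without it. Marrow cells of the long bones were grown on collagen at low oxygen, and cells carrying CD45, Ter119 or CD31 were depleted with magnets before RNA was taken. The 7 TauT+/+ libraries are labelled as 4 male and 3 female, and the 8 TauT-/- libraries as 4 male and 4 female. The animal or culture behind each library is not given in the sources used here, so p-values measure the spread between these libraries, which may in part be technical.

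The ADAR enzymes bind base-paired RNA and convert adenosine to inosine, which ribosomes and reverse transcriptases read as guanosine. ADAR2, the product of Adarb1, is a mainly nuclear enzyme best known for recoding transcripts of neuronal receptors such as Gria2. ADAR1, the product of Adar, is made as a constitutive nuclear form and a longer form from an interferon-responsive promoter, and its editing keeps the cell's own base-paired RNA from being sensed as viral by MDA5, the product of Ifih1. The counts here are per gene, so these forms were not separated, and editing of RNA was not measured.

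Adarb1 lies on chromosome 10 of GRCm39 at 77126183 to 77254167 on the minus strand, with 38 annotated transcripts, of which 16 are protein-coding. Adar lies on chromosome 3 at 89622329 to 89660753 on the plus strand, with 9 annotated transcripts, of which 5 are protein-coding. No annotated gene overlaps Adarb1. On the opposite strand, the nicotinic receptor subunit gene Chrnb2 overlaps Adar and was measured at a normalised read count of 0.524 to 3.39 CPM (reads scaled to a common library total), and the lncRNA Gm65528, not analysed here, overlaps it too. Whether the library kit keeps strand is not given in the sources used here, so reads from the overlap could not be told apart with certainty.

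The start regions of both genes, 250 bases before and 50 after a start site in the RefSeq table (GRCm38.p6), are shown because they differ in their letters and because Adar is known for an interferon-responsive start. Each matched GRCm39 exactly once. The Adarb1 region, chr10:77254058-77254357 on the minus strand, has its CpG pairs in capitals. The Adar region, chr3:89637775-89638074 on the plus strand, is the most downstream of 3 in the table and has matches to GAAANNGAA in capitals.
Adarb1: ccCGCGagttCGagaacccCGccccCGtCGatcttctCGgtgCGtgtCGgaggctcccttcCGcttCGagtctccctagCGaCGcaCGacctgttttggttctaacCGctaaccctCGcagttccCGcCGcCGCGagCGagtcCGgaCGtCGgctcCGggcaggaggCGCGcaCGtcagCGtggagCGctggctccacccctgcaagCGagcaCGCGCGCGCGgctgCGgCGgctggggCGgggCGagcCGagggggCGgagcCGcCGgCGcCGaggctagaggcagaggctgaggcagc
Adar: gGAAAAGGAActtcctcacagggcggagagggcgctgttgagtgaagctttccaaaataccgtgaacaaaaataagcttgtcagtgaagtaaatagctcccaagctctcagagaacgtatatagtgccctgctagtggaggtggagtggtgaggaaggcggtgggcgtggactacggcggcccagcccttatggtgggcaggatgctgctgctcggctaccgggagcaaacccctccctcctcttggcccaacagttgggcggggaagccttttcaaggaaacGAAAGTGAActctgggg
The Adarb1 region held 46 CpG pairs at a GC content of 73%, against medians of 7 pairs and 52.7% over 32851 promoters, of which 542 (1.65%) held at least as many. The other Adar regions held 6 and 34 CpG pairs, and the one shown held 12. The interferon-response letters GAAANNGAA followed by a further A, searched on both strands, stood in 1131 promoters (3.44%) and in no region of either gene. GAAANNGAA alone, which the longer form contains and which was searched after that form had been seen to be absent, stood in 2812 promoters (8.56%) and at 2 places in the Adar region shown. These were bases 2 to 10 and 284 to 292 of the region, the second at positions 34 to 42 of the transcript. The cyclic AMP response element TGACGTCA stood in 588 promoters (1.79%) and in no region of either gene. A match of letters is a description and not a binding site.

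Several libraries stood apart from their labels. Male-labelled libraries held 69764291 to 101575071 counts and female-labelled libraries 12761107 to 20781070, so depth and sex label cannot be told apart. Xist, the RNA of the inactive X chromosome, was at 841 CPM in TauT+/+ male 1 and 728 CPM in TauT-/- male 1, while the Y-linked Ddx3y was at 81.9 CPM in TauT+/+ female 3, so the sex-linked genes of 3 libraries went against their labels. TauT+/+ male 1 and female 1, and TauT-/- male 1 and female 1, were far closer to each other than other pairs. Their chi-square per gene was 9.98 and 8.24, against 75.9 for the next closest of 105 pairs and 1 from counting alone. This measure also grows with depth. In CPM, the spread of log2 ratios over genes was 0.108 and 0.0963 for these pairs. The next smallest spread, 0.2616, was that of TauT+/+ male 3 and TauT-/- male 3, across the genotypes. Close to it were TauT-/- males 2 and 3, at 0.2624, and TauT-/- male 3 and female 2, at 0.274. Slc6a6, the targeted gene, was at 1571 ± 712 CPM (SD, n = 7) in libraries labelled TauT+/+ and 806 ± 399 CPM (n = 8) in those labelled TauT-/-, and the genotypes overlapped. Of the 13 MSC markers listed, 10 had a fold change below 0, with a median of -0.55 on the log2 scale, and edgeR's quasi-likelihood test called 0 lower and 0 higher, against 0.750% and 0.546% of all genes. At an unadjusted p under 0.05, 3 were lower and 1 higher, against 23.6% of all genes in both directions. DESeq2 called 1 MSC marker lower, and voom 2 lower and 1 higher. Of 32780 genes, not filtered for low counts, DESeq2 called 3.47% lower and 2.95% higher. Of the 17204 filtered genes, voom called 4.12% lower and 3.55% higher. Their summed level was 28332 to 47612 CPM in TauT+/+ and 6357 to 40749 CPM in TauT-/- libraries. Of 16 macrophage markers, 15 had a fold change above 0 and 1, Cd68, was called higher, against 0.546% of all genes. At an unadjusted p under 0.05, 13 of the 16 were higher, against 10.6% of all genes. DESeq2 called 7 and voom 6 of them higher, against 2.95% of the 32780 and 3.55% of the 17204 genes. Their sum was 1427 to 9790 CPM in TauT+/+ and 6742 to 20915 CPM in TauT-/- libraries. None of these markers was at 0 in every library, and the CD45 gene Ptprc was measured in all despite the depletion. The part of these cells in the results below was not tested, and in bulk RNA fewer cells of a type and less RNA per cell cannot be told apart.

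Adarb1 was high in 6 of 7 TauT+/+ libraries and low in all 8 TauT-/- libraries. Its level (CPM, scaled by TMM factors) was 110.2, 111, 19.6 and 77.6 in TauT+/+ males 1 to 4. The TauT+/+ females 1 to 3 had 95.1, 67.7 and 43.6 CPM. Those values span a wide range, and TauT+/+ male 3 is the lowest of them. In TauT-/- males 1 to 4 Adarb1 was at 14.1, 20.6, 13.4 and 18.1 CPM. TauT-/- females 1 to 4 had 14.9, 9.41, 15.1 and 17.7 CPM. Every TauT-/- library was thus below the 6 other TauT+/+ libraries, while 1 TauT-/- library lay above TauT+/+ male 3, so the genotypes overlapped through TauT+/+ male 3 and TauT-/- male 2 alone. The raw counts behind these values were 196 to 9953, so counting error is small beside the spread.

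**Figure D1:**
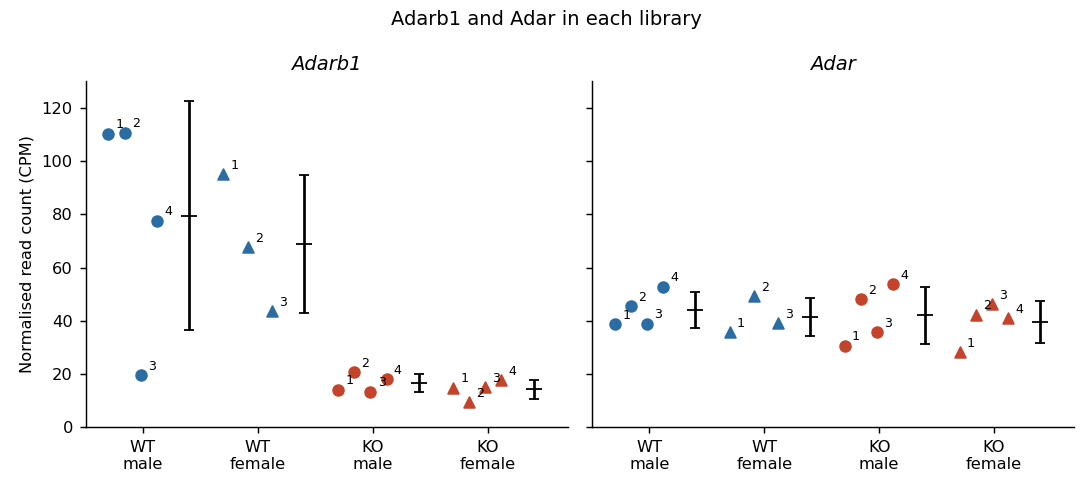
Normalised read counts (CPM, y axis) of Adarb1 (left) and Adar (right) in each library, by genotype and sex label on the x axis. Numbers beside the points are replicate numbers, and bars to the right of each group are the mean and SD. TauT+/+ (WT) male 3, at 19.6 CPM of Adarb1, lies among the TauT-/- (KO) libraries, whereas Adar spans 28.1 to 53.8 CPM with no gap between groups.

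The mean level of Adarb1 was 74.9 ± 34.2 CPM (SD, n = 7) in TauT+/+ and 15.4 ± 3.42 CPM (n = 8) in TauT-/- libraries. The fitted log2 fold change was -2.27 with a standard error of 0.30, which is a 4.81-fold lower level. By sex label it was -2.26 (SE 0.44) in male-labelled and -2.27 (SE 0.46) in female-labelled libraries. Without TauT+/+ male 3 the TauT+/+ mean was 84.1 ± 26.3 CPM (n = 6) and the log2 fold change -2.43 (SE 0.20). The order of the group means was TauT+/+ male (79.5 ± 42.8 CPM), TauT+/+ female (68.8 ± 25.8), TauT-/- male (16.6 ± 3.41) and TauT-/- female (14.3 ± 3.50), and the sex labels overlapped within either genotype. Relative to its mean, Adarb1 varied more among TauT+/+ (CV 45.7%) than among TauT-/- libraries (CV 22.2%), a difference that was not tested. Over all genes, edgeR called 129 lower (0.750%) and 94 higher (0.546%) in TauT-/-, and 154 genes (0.895%) had a fold change as far below 0 as Adarb1 or farther. When 1 library was left out, the numbers called ran from 4 lower (without TauT+/+ female 1 or 2) and 8 higher (without TauT+/+ female 2 or TauT-/- female 3) to 779 lower and 476 higher (without TauT+/+ male 3). With the macrophage covariate, within either sex label alone, or without the 3 libraries at odds with their sex labels, edgeR called 0 lower and 0 higher. With all 15 libraries, 75 genes (0.436%) were lower in TauT-/- with no overlap of the genotypes, and without TauT+/+ male 3 the number was 267 (1.55%), Adarb1 among them. Since this contrast chose Adarb1, these shares only place it among the genes.

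Adar differed between the genotypes by less than its spread between libraries. It was at 38.8, 45.5, 38.9 and 52.8 CPM in TauT+/+ males 1 to 4. TauT+/+ females 1 to 3 had 35.8, 49.3 and 39.1 CPM. TauT+/+ male 3, which was low in Adarb1, was not low in Adar. The TauT-/- males 1 to 4 had 30.6, 48.2, 35.8 and 53.8 CPM. TauT-/- females 1 to 4 had 28.1, 42.3, 46.3 and 41.1 CPM. The genotypes overlapped, with 4 of 8 TauT-/- libraries inside the TauT+/+ range, 3 below it and 1 above it, and the 2 lowest libraries were the near-identical TauT-/- male 1 and female 1. Means were 42.9 ± 6.36 CPM (n = 7) in TauT+/+ and 40.8 ± 8.83 CPM (n = 8) in TauT-/- libraries, with a log2 fold change of -0.067 (SE 0.14). It was -0.064 (SE 0.20) in male-labelled and -0.069 (SE 0.22) in female-labelled libraries. Of all genes tested, 2376 (13.8%) had a fold change as close to 0. All 4 group means, from 39.4 ± 7.86 CPM in TauT-/- females to 44.0 ± 6.64 CPM in TauT+/+ males, differed by less than their SD.

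**Figure D2:**
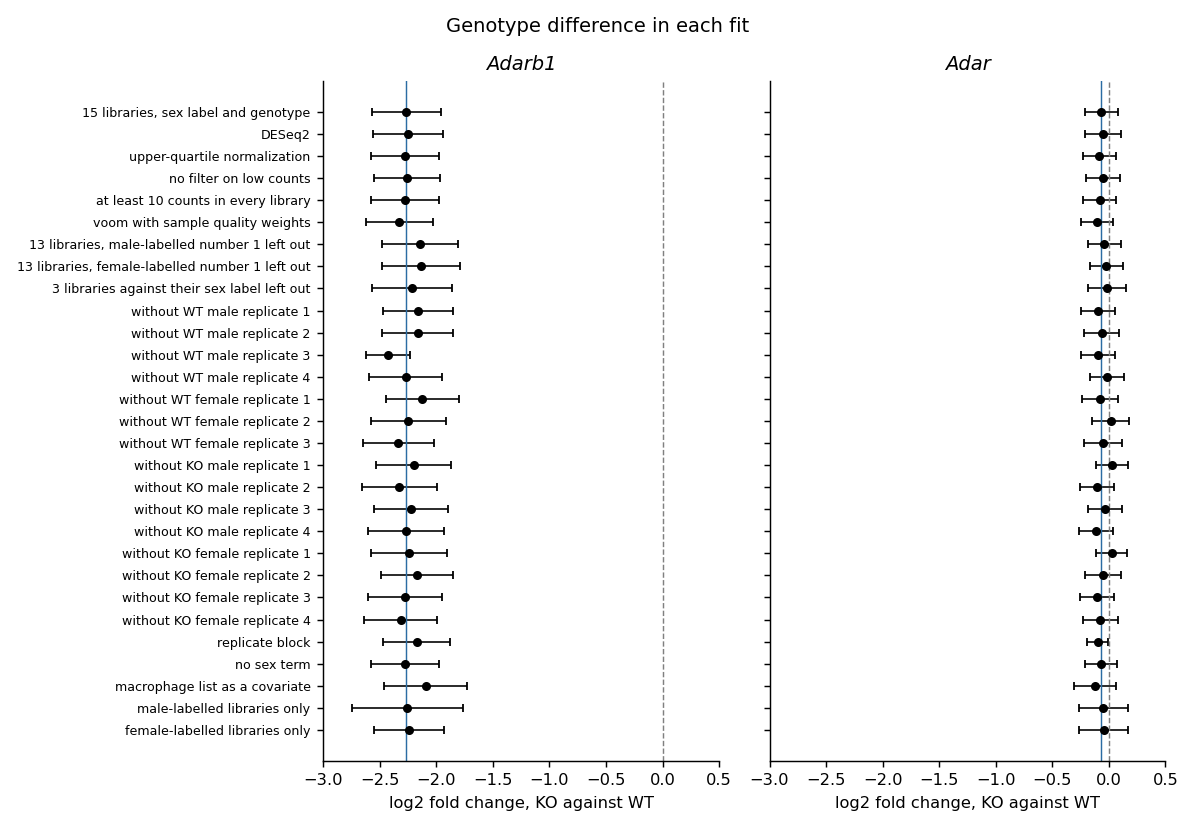
Log2 fold change of TauT-/- (KO) against TauT+/+ (WT) on the x axis for Adarb1 (left) and Adar (right), with 1 fit of the data per row on the y axis. Points are estimates, bars are standard errors, the dashed line is 0 and the blue line is the value of the fit to 15 libraries. Adarb1 runs from -2.43 to -2.09 over 28 alternatives and Adar from -0.12 to 0.027.

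Where the macrophage list was added to the model as a covariate, the log2 fold change was -2.09 (SE 0.37) for Adarb1 and -0.12 (SE 0.19) for Adar. TauT+/+ male 3 had a summed macrophage level of 9307 CPM. Among TauT+/+ libraries only female 3 was higher, at 9790 CPM. The level of TauT+/+ male 3 lay inside the TauT-/- range of 6742 to 20915 CPM. So did those of TauT+/+ male 1 (8373 CPM) and females 1 (8491 CPM), 2 (7922 CPM) and 3. TauT+/+ males 2 and 4, at 1427 and 5370 CPM, lay below that range. Leaving out the male-labelled library numbered 1 of each genotype gave -2.14 for Adarb1 and -0.042 for Adar, and leaving out TauT+/+ male 1, TauT-/- male 1 and TauT+/+ female 3, at odds with their sex labels, gave -2.21 and -0.015.

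The sex label, a contrast not used in choosing the genes, showed no called difference for either editor. Male-labelled libraries had Adarb1 at a log2 fold change of 0.21 (SE 0.30) against female-labelled ones, with an adjusted p of 0.934 by edgeR's quasi-likelihood test with Benjamini-Hochberg adjustment. For Adar it was 0.092 (SE 0.14), with an adjusted p of 0.943 by the same test. In the alternatives it lay between 0.068 and 0.35 for Adarb1, with adjusted p between 0.758 and 1.000, and between -0.034 and 0.17 for Adar. By this test 4 of 17204 genes (0.0233%) differed between the labels, 937 (5.45%) had an unadjusted p under the threshold, and DESeq2 called 43 of 32780 (0.131%). The genotype difference itself did not differ detectably between the labels: the interaction was 0.0051 (SE 0.61) for Adarb1 and 0.0053 (SE 0.30) for Adar on the log2 scale, both with an adjusted p of 1.000 by edgeR. The same test called 0 genes for it (0%), with 242 (1.41%) under an unadjusted p of 0.05, voom called 0, and DESeq2 called 2 of 32917 (0.00608%). The standard errors are wide, so a moderate difference would not have been detectable here, and the sign changed in 11 of 24 alternatives for Adarb1 and 9 of 24 for Adar. Near-identical libraries also stand on both sides of the sex label, and 3 libraries go against it. The sex label and interaction contrasts thus do not compare separate sets of male and female libraries. Without those 3 libraries the interaction was 0.47 (SE 0.73) for Adarb1 and 0.076 (SE 0.35) for Adar.

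Per length of annotated exon, the mean levels of Adar and Adarb1 lay close together in TauT+/+ libraries, and Adar stood above Adarb1 in all TauT-/- libraries. Levels were divided by the union of annotated exons, 12566 bp for Adarb1 and 8130 bp for Adar. On that scale Adarb1 was at 0.749 to 8.81 CPM per kb and Adar at 3.46 to 6.62 CPM per kb. The log2 ratio of Adar to Adarb1 (0.5 CPM added before division) was -0.86, -0.64, 1.60 and 0.078 in TauT+/+ males 1 to 4 and -0.77, 0.17 and 0.47 in females 1 to 3. In TauT-/- males 1 to 4 it was 1.72, 1.83, 2.01 and 2.18, and in females 1.52, 2.74, 2.21 and 1.82. Adar was thus the higher editor in 4 of 7 TauT+/+ and 8 of 8 TauT-/- libraries. The mean ratio was 0.0068 ± 0.87 (SD, n = 7) and 2.0 ± 0.38 (n = 8), and without TauT+/+ male 3 the first was -0.26 ± 0.57 (n = 6). The TauT+/+ values depend on the length used: with canonical transcripts, 6923 bp for Adarb1 and 5805 bp for Adar, the means were -0.37 and 1.63, and Adar was the higher in 2 of 7 TauT+/+ and 8 of 8 TauT-/- libraries. The fall of Adarb1 enters this ratio, so no test of it is given.

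**Figure D3:**
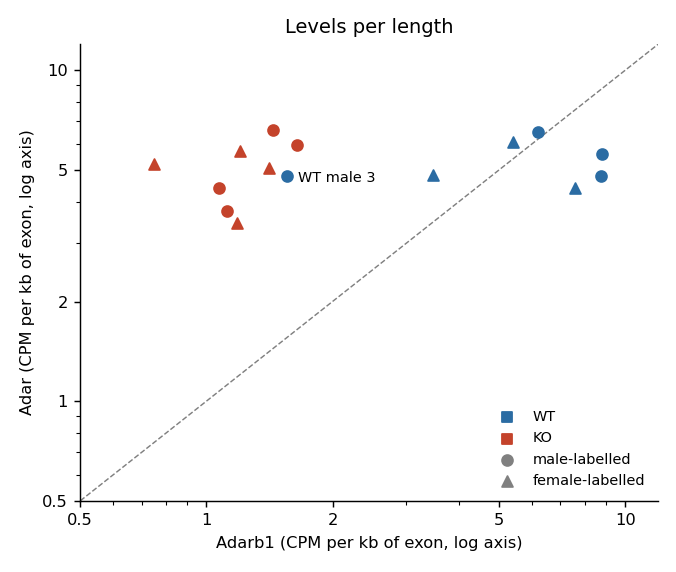
CPM per kb of exon of Adarb1 (x axis) against Adar (y axis) in each library, both on log axes, with genotype by colour and sex label by marker shape. The dashed line marks equal levels. The 8 TauT-/- (KO) libraries lie above it at the left, and TauT+/+ (WT) male 3 lies beside them.

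The other deaminases of RNA or DNA were low or did not pass the test by genotype. The third member of the family, Adarb2, which has no known deaminase activity, had 220 counts in all libraries together and 0 to 1.34 CPM, with a log2 fold change of -1.34 (SE 0.84, adjusted p = 0.346, edgeR). The tRNA deaminase genes Adat1 and Adat2 were at 3.59 ± 0.796 and 3.39 ± 1.07 CPM in TauT+/+ and 3.02 ± 1.15 and 3.54 ± 0.766 CPM in TauT-/- libraries, with adjusted p of 0.561 and 0.819 (edgeR). Among cytidine deaminases, Apobec1, which edits apolipoprotein B mRNA, was at 47.5 ± 14.4 CPM in TauT+/+ and 67.1 ± 34.2 CPM in TauT-/- libraries (log2 fold change 0.46, SE 0.27, adjusted p = 0.315, edgeR). Apobec3, a restriction factor of retroviruses, was at 30.7 ± 8.95 and 23.1 ± 6.70 CPM (log2 fold change -0.42, SE 0.23, adjusted p = 0.277, edgeR). Adad1, Adad2 and Apobec4 had 8, 1 and 1 counts, and Adat3 and Apobec2 had 0 counts in each of the 15 libraries. By counting error alone, 0 counts allows up to 3 counts per library. Whether overlap with other genes affects these counts was not checked, so 0 counts is not read as no expression. These 5 genes were not tested.

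The wider set of genes around editing showed no gene past the threshold in the fit to 15 libraries. Of 81 listed genes 66 were tested, and edgeR called 0 lower and 0 higher, against 0.750% and 0.546% of all genes. At an unadjusted p under 0.05, 5 were lower and 4 higher, against 23.6% of all genes in both directions. DESeq2 called 2 lower and 3 higher of 72 (Cyfip2, Flna, Oas3, Srsf9 and Stau1), against 3.47% and 2.95% of 32780 genes not filtered for low counts. Voom called 1 lower, Flna, and 0 higher, against 4.12% and 3.55% of the 17204 filtered genes. Without TauT+/+ male 3, 1 was called lower and 1, Cyfip2, higher, of 64, against 4.88% and 2.98% of all genes. The genes named here were chosen after their values had been seen.

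Among 17 tested regulators of the ADAR enzymes, 8 fold changes were below 0 and 9 above, with a median of 0.044 on the log2 scale. They ran from -0.33 for Stau1, which binds base-paired RNA, to 0.34 for the ribosomal gene Rps14. Stau1 was at 121 ± 19.2 CPM in TauT+/+ and 96.2 ± 10.7 CPM in TauT-/- libraries (adjusted p = 0.105, edgeR). The splicing factor gene Srsf9, whose product binds ADAR2, was at 43.1 ± 5.57 and 52.0 ± 7.05 CPM (adjusted p = 0.117, edgeR). The median of all genes tested was -0.015.

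Among 13 tested sensors of base-paired RNA and their partners, 9 fold changes were below 0 and 4 above, with a median of -0.18. Ifih1 was at 34.0 ± 15.8 CPM in TauT+/+ and 22.4 ± 6.53 CPM in TauT-/- libraries (log2 fold change -0.58, SE 0.30, adjusted p = 0.265, edgeR). Oas3, an oligoadenylate synthetase, had the highest fold change, at 1.90 ± 1.17 and 5.47 ± 3.39 CPM (adjusted p = 0.121, edgeR). Of 16 interferon-stimulated genes, 13 fold changes were below 0 and 3 above, with a median of -0.50. The range was from -1.07 for Oasl1 to 1.08 for Rsad2.

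Of 22 genes whose transcripts are known to be edited, 14 were tested, with 7 fold changes below 0 and 7 above and a median of 0.0010. The other 8, most of them neuronal receptor or channel genes, did not pass the filter. Gria2, the classical ADAR2 target, had 180 counts in total and was at 0 in 13 libraries, with up to 2.03 CPM in the others. Flna, an actin-binding protein gene, was at 3746 ± 422 CPM in TauT+/+ and 2651 ± 504 CPM in TauT-/- libraries (log2 fold change -0.48, SE 0.15, adjusted p = 0.0910, edgeR). Cyfip2, which encodes a subunit of an actin-regulating complex, was at 11.9 ± 5.46 and 36.1 ± 24.7 CPM (log2 fold change 1.52, SE 0.44, adjusted p = 0.0792, edgeR). Azin1, a regulator of polyamine synthesis, was at 118 ± 12.7 and 139 ± 50.2 CPM, and Blcap at 58.8 ± 7.12 and 54.5 ± 9.49 CPM. The share of these transcripts that was edited is not known from counts.

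**Figure D4:**
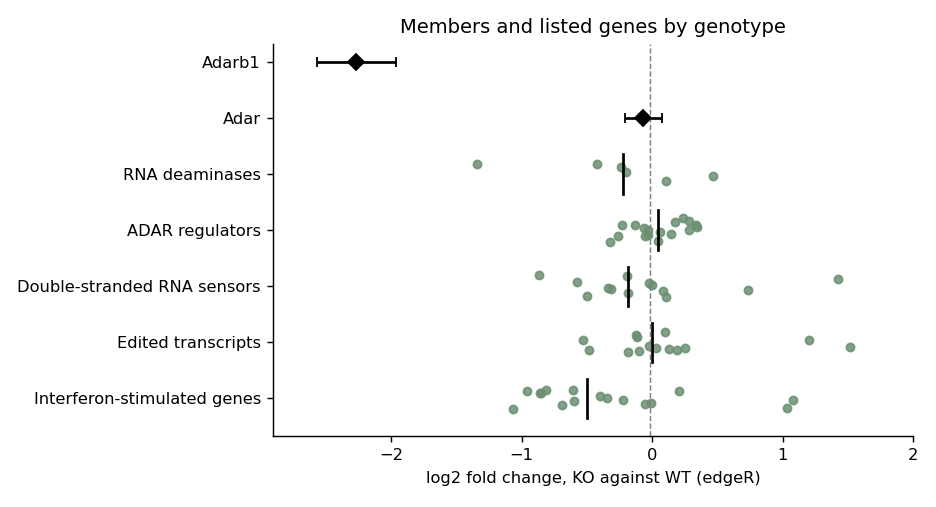
Log2 fold change of TauT-/- (KO) against TauT+/+ (WT) by edgeR on the x axis, for Adarb1 and Adar (diamonds with standard errors) and for the tested genes of 5 lists (points) on the y axis. Short vertical lines are list medians and the dashed line is the median of all tested genes. Adarb1, at -2.27, lies farther left than every point of the lists, which its choice by this contrast favours. Interferon-stimulated genes have the lowest median, -0.50.

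The genes most like Adarb1 over the 15 libraries, by Pearson's r of log2(CPM + 0.5) among 13200 genes with a mean of at least 1 CPM, were Vezt (0.960), Birc2 (0.955), Carmn (0.938), Rexo5 (0.931) and G0s2 (0.931). The points share genotype, depth and the near-identical pairs, so r is a description, and with group means removed it was 0.899, 0.846, 0.856, 0.708 and 0.812. Vezt, a gene of adherens junctions, had a small fold change, from 63.3 ± 11.4 CPM in TauT+/+ to 42.7 ± 4.70 CPM in TauT-/- libraries. Birc2, an inhibitor of apoptosis, was at 34.5 ± 7.74 and 20.1 ± 2.13 CPM. The lncRNA Carmn, known from smooth muscle cells, was at 41.0 ± 22.5 and 6.45 ± 3.25 CPM. Rexo5, an RNA exonuclease gene, was at 8.70 ± 1.64 and 4.50 ± 0.629 CPM. G0s2, an inhibitor of fat breakdown, was at 30.0 ± 25.5 and 3.51 ± 1.70 CPM. In all 5 genes TauT+/+ male 3 was the lowest TauT+/+ library, and in 4 of them it lay inside the TauT-/- range. The choice by likeness to Adarb1 over these libraries favours such a pattern, so it is no separate result. Likeness was not computed without TauT+/+ male 3.

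The genes most like Adar were Ifi44 (r = 0.889), 9930111J21Rik2 (0.873), Rem1 (0.844), Tmed8 (0.821) and Pcdh1 (0.817). With group means removed r was 0.905, 0.891, 0.845, 0.815 and 0.819. Ifi44, an interferon-stimulated gene, was at 8.72 ± 7.17 CPM in TauT+/+ and 5.47 ± 4.17 CPM in TauT-/- libraries and ranged from 0.995 to 24.5 CPM. Where the library numbered 1 of either sex label was left out, 3 of these 5 genes and 4 of the 5 most like Adarb1 stayed among the 5. Adarb1 and Adar themselves had r = 0.25 over the 15 libraries and 0.191 with group means removed.

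**Figure D5:**
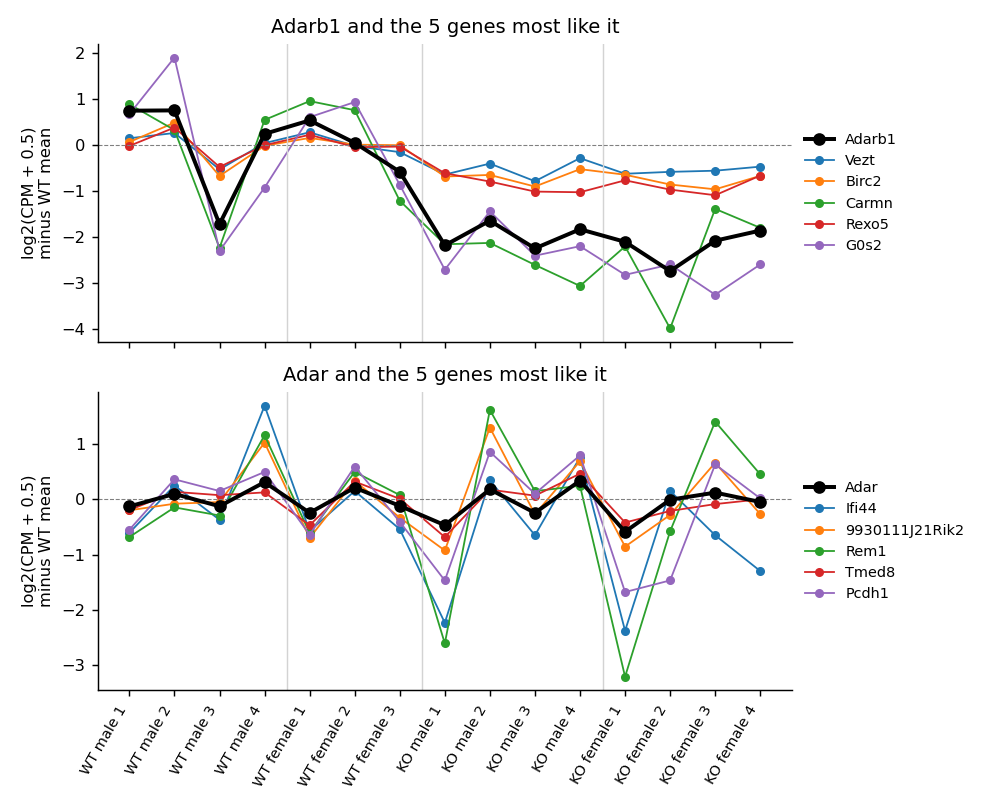
Log2(CPM + 0.5) minus the TauT+/+ (WT) mean (y axis) in each of the 15 libraries (x axis) for Adarb1 (top, black) and Adar (bottom, black) with the 5 genes most like each (colours). In the top panel all 6 lines drop at WT male 3 and stay low across the TauT-/- (KO) libraries, which the choice by likeness favours. In the bottom panel the lines dip at KO male 1 and KO female 1, the libraries lowest in Adar.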

How the data were processed

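RNA of MSC cultures was sequenced as 15 libraries after full-length cDNA amplification, as the study's methods describe. Per the submitters' processing notes, the authors filtered reads with fastp 0.23.1, mapped them to GRCm39 with STAR 2.7.9a and counted them on genes with featureCounts of Subread 2.0.1, by the methods with strand setting 2. The deposited values are raw whole-number counts per gene, in which 0 columns lacked a sample. The study's own model used DESeq2 with sex and condition.

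The fits were made with edgeR 4.0.16 in R 4.3.3 (TMM, filterByExpr, quasi-likelihood test, labelled sex and genotype in the model), with Benjamini-Hochberg adjustment over all 17204 genes tested and a threshold of 0.05. The biological coefficient of variation was 0.482. DESeq2 1.42.0, voom of limma 3.58.1, other filters and scalings, fits without single libraries, without near-identical or mislabelled libraries, with the replicate number as a block and with a macrophage covariate were alternatives. The interaction was fitted with 1 term per group. On simulated counts, edgeR, DESeq2 and voom were tested for the genotype contrast, and the other alternatives and the interaction were not. Other values were computed in Python 3.11.15. CPM uses TMM-scaled totals. Depth was 12761107 to 101575071 counts per library, and counting error is only part of the spread. Gene positions and exon lengths are from GENCODE M39, a later annotation of the authors' build, and start regions from the RefSeq table. A sign-flip test of the ratio of Adar to Adarb1 was planned and run, but its p is not given, since the ratio holds the values that chose Adarb1.

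The members and all gene lists were chosen with earlier results of these data known. Named genes are Adarb1, Adar, Slc6a6, listed genes past the threshold, the other measured RNA deaminases (1 of them is not reported here) and the 5 genes with the highest r with either member; others are named only where their values had been seen. Replicate numbers are shared between groups. The correlation of deviations of same-numbered TauT+/+ and TauT-/- libraries within a sex label ran from -0.040 to 0.62. The highest was that of TauT+/+ male 3 and TauT-/- male 3. Of 14 libraries with a same-numbered partner, 11 correlated best with it. The main fit did not pair by number, and a fit with the number as a block was an alternative. Ddx15 and Rigi have no row under these symbols, and Rigi was measured under the older symbol Ddx58.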

Additional observations from a re-analysis of the deposited data

Results flagged for a closer look

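Each group of 4 TauT+/+ or TauT-/- libraries was searched for a library whose gap to its nearest neighbour took up an unusual share of the group's range. Of 66 groups tested over 22 results 2 were marked, and chance gives about 1 in 20 groups, or 3.3. TauT+/+ male 1 had 1.34 CPM of Adarb2 where the other TauT+/+ males had 0.0403 to 0.111 CPM, so the gap was 0.946 of the range. TauT+/+ females 1 to 3 had 0.919, 0.918 and 0.415 CPM. TauT+/+ male 1 is near-identical to female 1, and its sex-linked genes go against its label. TauT+/+ male 4 had 22.9 CPM of 9930111J21Rik2, among the genes most like Adar, where the others had 9.54 to 10.6 CPM, with a gap of 0.918 of the range. Neither Adarb1 nor Adar was marked in any group tested, although TauT+/+ male 3 was the lowest TauT+/+ library in Adarb1.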

How the results depend on the processing

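The log2 fold change of Adarb1 by genotype was negative in all 28 alternatives, from -2.43 to -2.09, and from -2.43 (without TauT+/+ male 3) to -2.12 (without TauT+/+ female 1) when 1 library was left out. For Adar 3 of 28 alternatives had a positive sign (without TauT+/+ female 2, TauT-/- male 1 or TauT-/- female 1, 0.016 to 0.027), all within the spread between replicates. No alternative put a sex label or interaction value of either gene past the threshold. Of the listed genes 0 were called lower and 0 higher. DESeq2 called 2 lower and 3 higher, voom 1 lower, and leaving out 1 library gave 0 to 1 lower and 0 to 1 higher, the 1 being without TauT+/+ male 3. The mean log2 ratio of Adar to Adarb1 over 15 libraries was 1.07 per length of all exons, 0.70 per canonical transcript length and 0.44 with no length correction. It was 0.952 to 1.21 when 1 library was left out. Of the 5 genes most like Adar 3 stayed among the 5 in either set of 13 libraries, and of those most like Adarb1 4 did. Counts of called genes over all genes were 1136 lower and 968 higher with DESeq2, 708 and 611 with voom, 779 and 476 without TauT+/+ male 3, 258 and 188 with no sex term, 200 and 115 with at least 10 counts in every library and 42 and 32 with no filter, against 129 and 94. They were 0 and 2 without the male-labelled libraries numbered 1 and 0 and 7 without the female-labelled ones. edgeR called 0 and 0 without the 3 libraries at odds with their sex labels (1503 and 1612 at an unadjusted p under 0.05), with the macrophage covariate (1134 and 769), in male-labelled libraries alone (630 and 648) and in female-labelled ones alone (1016 and 998). The cause was not tested.

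With the replicate number as a block, the log2 fold change was -2.17 for Adarb1 and -0.097 for Adar, and 177 genes were called lower and 82 higher. Of 14 libraries with a same-numbered partner, 11 correlated best with their own number, a hint from the data and not from the design. The block changed no other call of either gene or of the listed genes. Depth limits the female-labelled libraries most, with as few as 196 counts of Adarb1.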

Other observations

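The transporter lost in these mice and the editor that fell were partly alike over the libraries. Pearson's r of log2(CPM + 0.5) between Adarb1 and Slc6a6 was 0.697 over the 15 libraries and 0.517 with group means removed, and that between Adar and Slc6a6 was 0.406 and 0.431. The points share genotype and near-identical libraries, so these are values with no test.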
